A study of Mus musculus with 230 samples.

Results

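The cells described here are young neurons that lacked Eomes and carried Neurod6 messenger RNA, compared between embryonic day 15 (E15) and postnatal day 2 (P2) across all genes. They were chosen on their deposited values: a cell was taken when Eomes was below 1 RPKM and Neurod6 was at least 5 RPKM, where RPKM is the number of reads of a gene scaled to its transcript length and to the read total of the cell. This rule took 62 of 229 cells (27.1%). Of these, 41 came from E15 (33.9% of that age) and 21 from P2 (19.4% of that age). Eomes and Neurod6 are therefore part of the selection, and their values are given only as a description.

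All cells came from C57BL/6 mice of the genotype Neurog2CreERT x Ai14+/+. In these mice a tamoxifen-inducible recombinase under regulatory sequences of Neurog2, a proneural factor of glutamatergic progenitors, switches on the red reporter tdTomato, and tdTom+ cells were sorted. Tamoxifen was given 12 h before harvest at both ages, and the tissue was the pallium at E15 (E15.5 in the design text) and the dorsal subventricular zone at P2, so that age and dissected region differ together. Each cell gave its own library of 75-base single reads. No animal or litter is named in the labels: the cells of an age are treated as 1 sample, cells are not replicates, and no test, standard error or p-value is given. The formats of the cell titles fall into 2 kinds per age, taken here as plates: E15 set A (26 selected cells), E15 set B (15), P2 plate 1 (10) and P2 plate 2 (11). That reading of the titles is an inference, and the spread of a difference is given below as its lowest and highest value among 4 plate pairs, each made of an E15 and a P2 plate.

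In the developing cortex, radial glia give rise to intermediate progenitors that express Eomes (Tbr2), and these divide into glutamatergic neurons. As a cell leaves the progenitor state it shuts off Eomes and switches on the basic helix-loop-helix factors Neurod1, Neurod2 and Neurod6, begins to migrate and extends an axon. Neurons born early settle in deep layers and are marked by factors such as Bcl11b, Fezf2, Sox5 and Tbr1, and neurons born later settle in upper layers and are marked by Cux1, Cux2, Pou3f2 and Pou3f3. Bcl11b is linked to subcerebral axon projection. The dorsal subventricular zone still holds Eomes-positive progenitors after birth.

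Neurod factors bind E-boxes, so the promoters of the leading genes were searched for CAGATG on both strands (CATCTG when read from the other), in RefSeq windows from 250 bases before to 50 after the start of each gene. The motif was in 19.2% of all 27025 promoters and in 12.0% of the 2755 measured genes with a window. Among the leading genes named below it was found in 2 of 10 higher genes with a window (Sema3c and Hdac9) and in 3 of 11 lower ones (Calr, Lrpap1 and Tiam2). The POU octamer ATTTGCAT (ATGCAAAT on the other strand) was in 1.97% of all promoters, in 1.67% of those of measured genes, in that of Hdac9 among the higher genes and in none of the lower ones. Hdac9 has 2 windows and Tiam2 has 3, of which 1 each is shown, and the octamer is not in the shown window of Hdac9. A gene was counted when any of its windows held the motif, so more windows gave more chances of a match. The shown window of Tiam2 lies inside the gene body given below, so its start is not the first base of that gene. A match of letters is a description and shows no binding. The windows of 3 genes that stood far apart between the ages are shown 5′ to 3′ in the sense of the gene, with the E-box in capitals: Sema3c on GRCm38 at chr5:17574566-17574865 (plus strand, motif 200 bases before the start), Hdac9 at chr12:34917046-34917345 (minus strand, motif 76 bases before) and Tiam2 at chr17:3482065-3482364 (plus strand, motif 8 bases before).
Sema3c: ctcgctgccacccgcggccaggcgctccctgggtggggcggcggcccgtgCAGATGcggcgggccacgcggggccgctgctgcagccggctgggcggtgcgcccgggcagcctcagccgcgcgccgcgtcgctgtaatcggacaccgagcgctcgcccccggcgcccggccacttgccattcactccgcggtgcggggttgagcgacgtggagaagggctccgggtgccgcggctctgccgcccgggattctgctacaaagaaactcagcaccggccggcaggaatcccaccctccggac
Hdac9: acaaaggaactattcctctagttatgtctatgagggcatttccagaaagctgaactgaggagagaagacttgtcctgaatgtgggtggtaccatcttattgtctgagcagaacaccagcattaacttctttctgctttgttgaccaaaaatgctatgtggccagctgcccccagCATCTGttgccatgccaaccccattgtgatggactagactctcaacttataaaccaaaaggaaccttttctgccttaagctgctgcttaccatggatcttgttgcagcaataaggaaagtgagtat
Tiam2: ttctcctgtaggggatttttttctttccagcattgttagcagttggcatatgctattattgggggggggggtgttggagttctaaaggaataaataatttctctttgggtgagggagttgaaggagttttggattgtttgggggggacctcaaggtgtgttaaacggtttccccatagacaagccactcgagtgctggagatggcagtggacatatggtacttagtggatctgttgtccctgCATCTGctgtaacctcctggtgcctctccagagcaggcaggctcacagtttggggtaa

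The selection left a clear gap in Neurod6 and almost none in Eomes. Neurod6 had its lowest, median and highest values at 18.5, 686 and 2287 RPKM in the E15 cells and at 9.43, 130 and 1040 RPKM in the P2 cells. The highest Neurod6 value among cells without Eomes that fell outside was 0.293 RPKM at E15 and 2.28 RPKM at P2. The highest Eomes value inside was 0.996 RPKM at E15 and 0.810 at P2, and the lowest among Neurod6-positive cells outside was 1.02 and 1.18. Eomes was exactly 0 in 32 selected cells at E15 and 18 at P2. Most selected cells thus carried ample Neurod6 transcript, but less of it at P2: 2 E15 cells and 5 P2 cells were below 50 RPKM.

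The label of young neurons was checked against Tubb3, a neuronal tubulin, and Dcx, doublecortin, a microtubule protein of migrating neurons. At E15 39 of 41 cells had both at 1 RPKM or more (detected), and at P2 21 of 21 did. No gene of the microglia list (8 genes), the endothelial and mural list (8) or the ependymal and choroid plexus list (5) was detected in any selected cell, and no globin gene of the adult type was either. Of 15 radial glia markers, Hes1, Hopx, Tnc, Aldh1l1 and Mfge8 were in no cell of either age, and the summed RPKM of the list ran from 0 to 214 with a median of 17.5 at E15 and from 0 to 214 with a median of 5.12 at P2. Of 12 markers of intermediate progenitors other than Eomes, 33 cells at E15 and 9 at P2 had at least 3 detected, with median sums of 192 and 60.7 RPKM. The E15 cells thus had higher median sums for both progenitor lists. The glutamatergic neuron list without Neurod6 was also higher there, with median sums of 1006 RPKM at E15 and 394 RPKM at P2. Higher sums at E15 were therefore not particular to progenitor markers. The part of the progenitor transcripts in the results below was not tested.

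The P2 libraries detected fewer genes. The median number of genes at 1 RPKM or more was 2667 (range 955 to 3653) at E15 and 1979 (1261 to 2794) at P2. By plate the medians were 2620.5 in E15 set A, 2701 in set B, 1886 in P2 plate 1 and 2103 in plate 2. Reads assigned to genes, estimated from the steps of the RPKM values, had a median of 3.19 M (0.791 M to 5.67 M) at E15 and 2.56 M (1.54 M to 4.46 M) at P2. The median share of RPKM from mitochondrially encoded genes was 8.98% at both ages, but 9 E15 cells and no P2 cell exceeded 20%. Xist was detected in 12 E15 and 4 P2 cells, none of them on P2 plate 1, and a Y-linked gene in 12 and 13. The lower number of detected genes accompanies every gene group below that was lower at P2. In 11 cells per age matched on that number, 12 of the counted genes named below had a difference short of 1 (Apc2, Cstf2t, Flrt3, Fzd1, Kif5a, Ndufa8, Ndufa9, Ndufb9, Ndufv1, Pdia4, Pou3f3 and Prex1), and their matched values are given where they are described. Btg1, Chl1, Fezf2, Myt1l, Ndufa1, Ptn, St13, mt-Nd3 and mt-Nd5 were past 1 there overall but were no longer counted.

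A gene's level was taken as log2(RPKM + 1) averaged over cells; its difference is the P2 level minus the E15 level, a scale that understates the change of genes near 0. Of 46983 genes, 3737 were measured, meaning detected in at least 25% of the selected cells of either age. A measured gene was counted as higher or lower at P2 when its difference was at least 1 in that direction overall and in each of the 4 plate pairs. On this count 58 genes were higher (1.55% of those measured) and 220 were lower (5.89%), 7.44% in all, and counts within the lists below are read against these shares. The median difference over all measured genes was -0.41 (plate pairs -0.53 to -0.30), so most lists are read below against that shift and not against 0. By the share of genes with a difference past 1 either way, the ages stood no further apart than the 2 P2 plates did. That share was 22.5% between ages (41 and 21 cells) and 15.1% between the 2 E15 sets (26 and 15 cells). Between the 2 P2 plates (10 and 11 cells) it was 24.6%. Means of fewer cells vary more, so these shares are not on an equal footing. For no measured gene were the ranges over cells apart between the ages (0%).

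**Figure D1:**
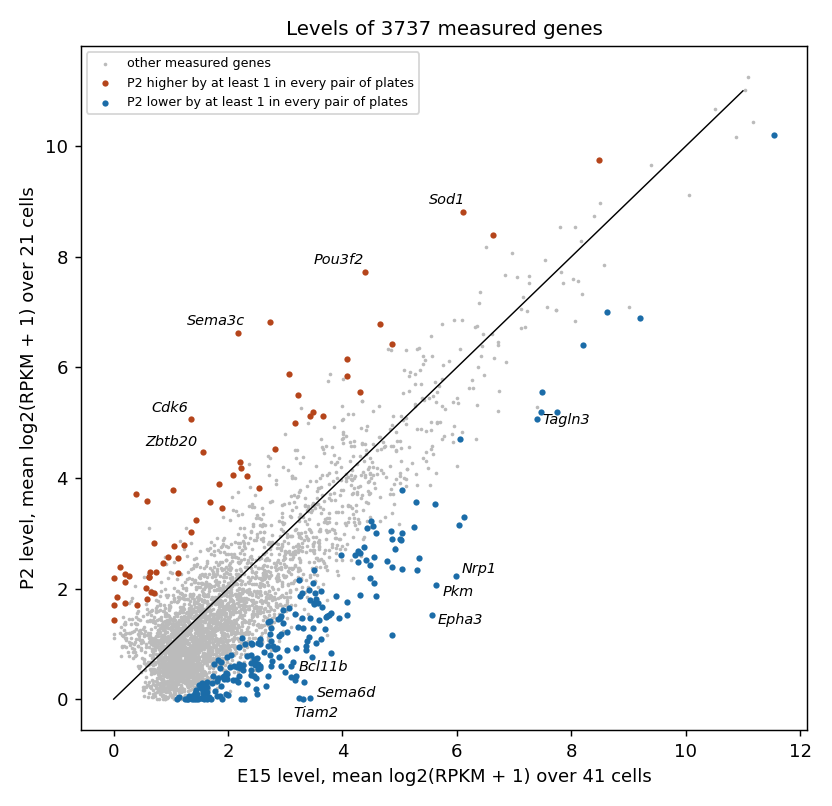
Level of each of 3737 measured genes in Eomes-negative Neurod6-positive cells, as mean log2(RPKM + 1) over 41 E15 cells (horizontal) and 21 P2 cells (vertical), with the line of equal levels. The 58 genes higher in every plate pair are orange, the 220 lower ones are blue, and the cloud lies below the line on the whole, as the median difference of -0.41 states.

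The genes that stood highest at P2 were led by Sema3c, a secreted semaphorin that steers axons, by Cdk6, a cyclin-dependent kinase of the G1 phase, and by Zbtb20, a zinc finger repressor. Sema3c (chr5:17574281-17730268) had its lowest, median and highest values at 0, 0.649 and 118.5 RPKM over the E15 cells and at 0.144, 137 and 376 RPKM over the P2 cells. All but 1 of the P2 cells lay above the E15 median, and the highest E15 cell lay below the P2 median. The difference was 4.45 (plate pairs 3.54 to 5.13), the largest among the leading genes. Cdk6 (chr5:3341485-3531008) ran over 0, 0 and 72.0 RPKM at E15 and over 0, 29.8 and 236 RPKM at P2, and was detected in 15 of 41 and 20 of 21 cells, with a difference of 3.71 (3.48 to 3.99). Zbtb20 (chr16:42875881-43642602) was at 0, 1.47 and 50.5 RPKM at E15 and at 4.71, 25.4 and 66.4 RPKM at P2, so that every P2 cell lay above the E15 median; its difference was 2.91 (2.61 to 3.37). The ranges of these 3 genes overlapped between the ages.

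The other leading higher genes were of mixed function. Impact, a translational regulator that is high in neurons, differed by 2.80 (2.66 to 2.96), with 21 of 41 and 20 of 21 cells detected. Sod1, the copper-zinc superoxide dismutase, had lowest, median and highest values of 0, 163 and 617 RPKM at E15 and of 146, 420 and 1019 RPKM at P2, a difference of 2.70 (2.43 to 2.90). At P2 no cell was without Sod1, while 7 of 41 E15 cells were at 0, and these 7 libraries had 955 to 1537 detected genes. The Sod1 difference was 1.38 without the E15 cells over 20% mitochondrially encoded RPKM and 1.86 without cells with few detected genes. Spry2, which dampens signalling by growth factor receptors, differed by 3.00, with the widest range over plate pairs in this set (1.77 to 4.11), since its level was 2.39 on P2 plate 1 and 4.67 on plate 2. Egr1, an immediate early transcription factor, was found at 1 RPKM or more in 2 cells at E15 and in 10 at P2 (difference 1.93, 1.76 to 2.18). Dhrs3, a retinaldehyde reductase, was at 0 in all 41 E15 cells (a limit of 3 cells in 41 allows a share of up to 7.32% with the transcript, counting error only) and was detected in 7 of 21 P2 cells, where it reached 1049 RPKM. Pou3f3, a POU factor, was higher by 2.14, and the same direction held for Ypel5 (2.27), the calcium uniporter regulator Micu3 (1.97), Hsp70-interacting St13 (1.77) and the polyadenylation factor Cstf2t (1.80). The microRNA gene Mir5128 was higher by 2.75 on reads of 6 E15 and 9 P2 cells, and such reads do not measure the mature microRNA. In 11 cells per age matched on detected genes Pou3f3 (0.76) and Cstf2t (0.40) were no longer past 1, and St13 was at 0.91 without the E15 cells over 20% mitochondrially encoded RPKM.

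Hdac9, a class IIa histone deacetylase, was higher in part of the P2 cells only. It lay at 0, 0 and 59.5 RPKM (lowest, median, highest) at E15 and at 0, 4.15 and 253 RPKM at P2, and was detected in 9 of 41 and 11 of 21 cells. It was at 0 in 5 of 10 cells of P2 plate 1 and in 4 of 11 of plate 2, and the plate levels were 2.77 and 2.86 against 0.66 and 0.80 in the E15 sets. The difference was 2.10 (1.97 to 2.19), and 1.39 when Neurod6 of at least 50 RPKM was asked of every cell.

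Of the 15 leading lower genes, 4 encode guidance or adhesion molecules: Epha3, Nrp1, Sema6d and Flrt1. Epha3, an ephrin receptor (chr16:63543534-63864175), had lowest, median and highest values of 0.282, 49.9 and 481 RPKM at E15 and of 0, 0 and 83.8 RPKM at P2, and was detected in 40 of 41 and 7 of 21 cells. Only 2 P2 cells lay above the E15 median, and the difference was -4.05 (-4.70 to -3.25). Nrp1, the co-receptor of class 3 semaphorins such as Sema3c (chr8:128358604-128503363), ran over 0, 77.2 and 528 RPKM at E15 and over 0, 0.030 and 143 RPKM at P2, with 40 of 41 and 9 of 21 cells detected. Its level was 1.05 on P2 plate 1 and 3.30 on plate 2, so the difference of -3.75 had a wide range (-5.11 to -2.36). Sema6d, a transmembrane semaphorin (chr2:124089969-124667770), was at 0, 14.7 and 122 RPKM at E15 and did not exceed 0.255 RPKM in any P2 cell (31 of 41 and 0 of 21 detected; difference -3.42, -3.86 to -2.67). Tiam2, an activator of the GTPase Rac1 (chr17:3326573-3531344), was likewise at 0, 9.38 and 126 RPKM at E15 and at most 0.307 RPKM at P2 (29 of 41 and 0 of 21; difference -3.22, -3.55 to -3.02). A count of 0 of 21 cells, read with the same limit of 3 cells, allows a share of up to 14.3%, counting error only.

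Among the other leading lower genes, Dusp14, a phosphatase of MAP kinases, was found in 23 cells at E15 and was at 0 in every P2 cell, with a difference of -3.32 (-3.76 to -2.54) that depends on the pseudocount. Cdkn1c, a cyclin-dependent kinase inhibitor (p57), was detected in 26 of 41 and 1 of 21 cells, and differed by -3.02 (-3.38 to -2.60). Flrt1, an adhesion molecule of migrating neurons, was detected in 28 and 1 cells and differed by -2.82 (-3.17 to -2.46). These 5 genes, Sema6d, Tiam2, Dusp14, Cdkn1c and Flrt1, were each detected in at most 1 P2 cell. Others were lower at P2 but still present: Fam114a2 (-3.72), the endoplasmic reticulum chaperone Calr (-2.95), Tsc22d1 (-2.95), the membrane protein Itm2b (-2.89), Ddah2 (-2.83), the splicing factor Snw1 (-2.53) and the receptor chaperone Lrpap1 (-2.45). When RPKM values were averaged before the logarithm was taken, 7 of the 30 leading genes were no longer counted: Nrp1 (-2.08), Fam114a2 (-2.29), Ddah2 (-1.34), Itm2b (-1.20), Lrpap1 (-0.86), Ypel5 (1.56) and Micu3 (1.27). Of all 30 leading genes, 7 overlap another gene in the annotation (Cdk6, Cdkn1c, Micu3, Nrp1, Snw1, Tiam2 and Zbtb20), and the libraries do not mark strand.

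**Figure D2:**
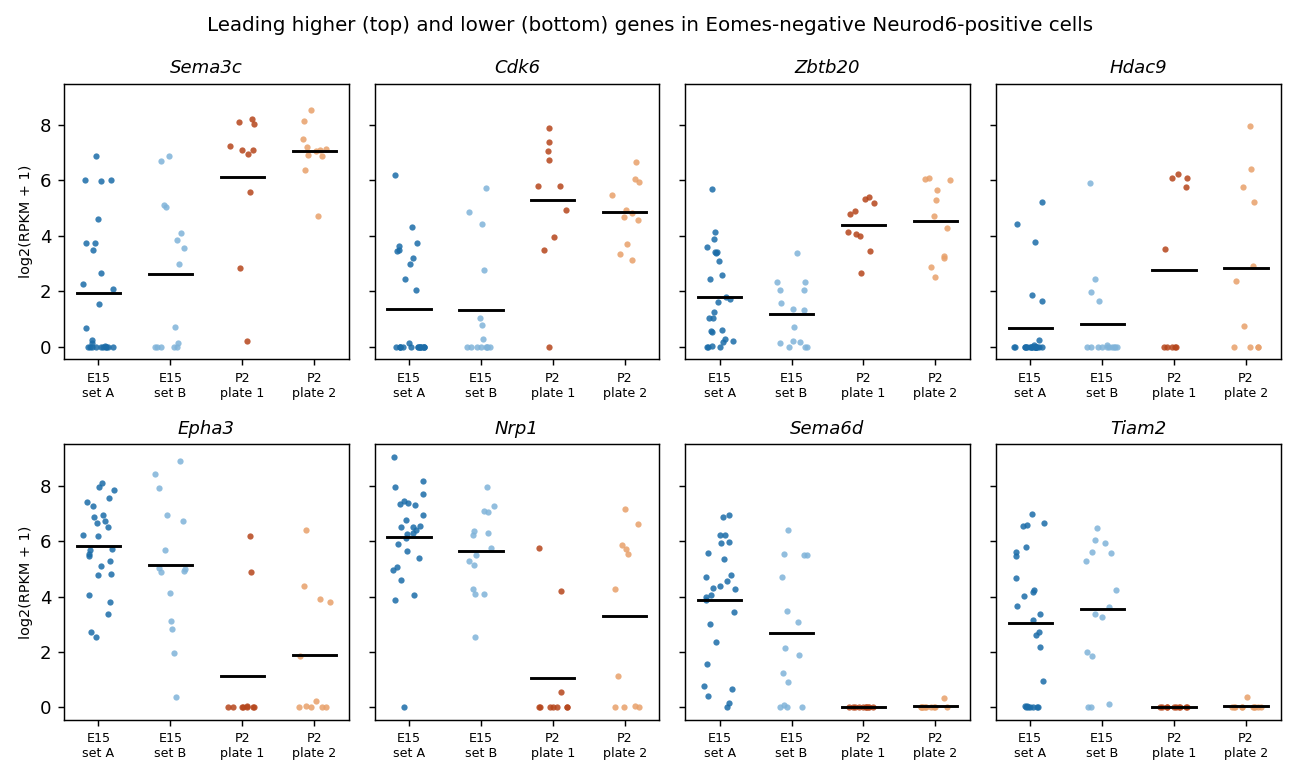
log2(RPKM + 1) of 4 genes that were higher at P2 (top) and 4 that were lower (bottom), 1 point per selected cell by plate, with the mean of the plate as a bar. Sema6d and Tiam2 are at or near 0 in all P2 cells, whereas Sema3c, Cdk6 and Zbtb20 overlap between ages and Nrp1 differs between the P2 plates.

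Layer genes did not all lie on 1 side. Of 18 upper layer genes 9 were measured; Pou3f2, Pou3f3 and Cux2 were higher at P2, and the list median was 0.09 (plate pairs -0.42 to 0.76) beside -0.41 for all measured genes. Of 22 deep layer and subplate genes 9 were measured; none was higher, Bcl11b, Fezf2 and Foxp1 were lower, and the median was -0.71 (within single plate pairs -1.28 to -0.98). The POU factors Pou3f2 and Pou3f3 are linked to the making and migration of upper layer neurons.

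Pou3f2 (chr4:22482780-22488366) had lowest, median and highest values of 0, 33.9 and 229 RPKM at E15 and of 9.08, 250 and 992 RPKM at P2, and was detected in 33 of 41 and 21 of 21 cells. Of the P2 cells, 18 lay above the E15 median. The difference was 3.33, but its range over plate pairs was wide (1.62 to 4.60), since levels were 3.87 and 5.29 in the E15 sets and 6.91 and 8.47 on the P2 plates. It was not past 1 in every pair without the 6 P2 cells with Gad2 (3.23 overall) or without the 9 E15 cells over 20% mitochondrially encoded RPKM (2.95 overall). Cux2, a homeobox factor of upper layers, lay at 0, 3.31 and 23.9 RPKM at E15 and at 1.48, 10.6 and 34.0 RPKM at P2, and was detected in 25 of 41 and 21 of 21 cells. Its difference of 1.56 was close in all plate pairs (1.47 to 1.63), and 1.13 without those 9 cells. Its relative Cux1 did not stand apart (0.09, -0.42 to 0.38), and Lhx2, a homeobox factor of cortical progenitors and upper layers, ranged from -3.86 to 0.76 over the plate pairs. Unc5d, a netrin receptor of multipolar and upper layer cells, was at 1.07 (0.25 to 1.71).

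Bcl11b (chr12:107910403-108003602), also called Ctip2, was at 0, 9.65 and 82.2 RPKM at E15 and at 0, 0 and 52.8 RPKM at P2, with 32 of 41 and 2 of 21 cells detected (difference -2.71, -3.02 to -2.44). A single P2 cell lay above the E15 median of Bcl11b. Fezf2, which directs subcerebral projection, was detected in 16 E15 cells and no P2 cell (-1.43), Foxp1 in 20 and none (-1.37), and Sox5, a factor of subplate and layer 6, in 34 and 2 cells. The Sox5 difference was -2.47, yet it was not counted as lower because 1 plate pair was at -0.97; 2 cells of P2 plate 1 were high. Tbr1, a T-box factor of layer 6 and of early postmitotic neurons, went the other way from its list: it lay at 0, 2.19 and 54.7 RPKM at E15 and at 0, 4.96 and 81.4 RPKM at P2, with 26 of 41 and 13 of 21 cells detected and a difference of 0.92 (0.64 to 1.16) that stayed short of 1.

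Read cell by cell, Tbr1 without Bcl11b was found in 11 of 21 P2 cells (52.4%, 95% exact binomial interval 29.8% to 74.3%) and 5 of 41 E15 cells (12.2%, 4.08% to 26.2%). By plate these were 3 of 26 and 2 of 15 E15 cells, and 7 of 10 and 4 of 11 P2 cells. As given above, Tbr1 was detected in similar shares of cells at both ages. The combined count thus mostly restates the lower detection of Bcl11b at P2. The intervals cover the counting error over cells only and leave out differences between animals, litters and plates. Reads were counted without molecular identifiers.

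**Figure D3:**
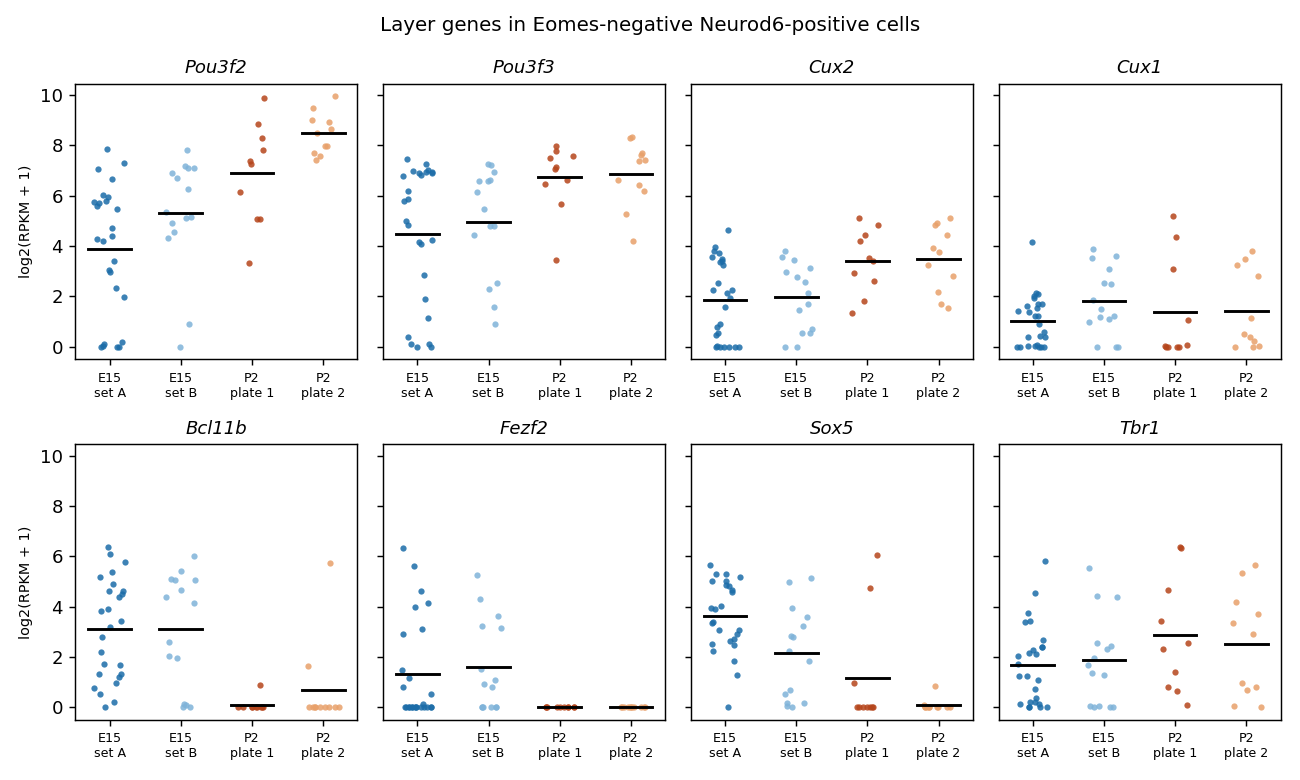
log2(RPKM + 1) of 8 layer genes, 1 point per selected cell by plate, with the mean of the plate as a bar. Pou3f2, Pou3f3 and Cux2 lie higher on both P2 plates, Bcl11b and Fezf2 are at or near 0 in most P2 cells, and the P2 mean of Sox5 on plate 1 rests on 2 high cells.

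Of 24 factors of glutamatergic differentiation 18 were measured. Neurod1, Nhlh1, Bcl11a and Insm1, 4 of the 18, were lower and none was higher, beside 5.89% lower and 1.55% higher among all measured genes, with a list median of -0.91 (plate pairs -1.02 to -0.45) and -0.61 in matched cells. Neurod1 lay at 0, 61.8 and 440 RPKM at E15 and at 0, 1.09 and 185 RPKM at P2 (-2.78, -3.72 to -2.14), and was detected in 37 of 41 and 11 of 21 cells. Nhlh1, a helix-loop-helix factor of newborn neurons, was detected in 25 E15 cells and was at 0 in every P2 cell (-1.70). Bcl11a, a zinc finger partner of Bcl11b, was at a median of 34.0 RPKM at E15 and of 1.95 RPKM at P2 (-2.71), and Insm1, a zinc finger factor of delaminating progenitors, differed by -1.59. Neurod2 was at -1.38 (-2.08 to -0.75), short of the count. Neurod6, part of the selection, was at -2.30. The vesicular glutamate transporter Slc17a6 (VGLUT2) was detected in 28 of 41 and 11 of 21 cells (-1.19, -2.20 to -0.17), while Slc17a7 (VGLUT1) was in 5 and none. Id2, an inhibitor of helix-loop-helix factors, was at 1.67, but from -0.31 to 2.96 over the plate pairs. The progenitor gene Neurog2, whose regulatory sequences drive the reporter, was detected in 7 of 41 and 6 of 21 cells.

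Of 21 pan-neuronal genes 16 were measured. None was higher and only Myt1l, a neuronal repressor of other cell fates, was lower (-1.59). These counts are near the shares of all measured genes, 1.55% higher and 5.89% lower. The list median was -0.78 (-0.99 to -0.67), beside -0.41 for all measured genes. Tubb3 ran over 0.175, 697 and 2230 RPKM at E15 and over 1.31, 207 and 1061 RPKM at P2, and 2 of 21 P2 cells lay above the E15 median. Its difference was -1.92, but -0.81 in 1 plate pair, so it was not counted. Dcx did not stand apart from the general shift (-0.45, -1.17 to 0.17). Of 34 measured genes of the cytoskeleton of growing neurites, which share 6 genes with the former list, Tubb2b (-2.27), the motor Kif5a (-1.51, and -0.62 in matched cells) and the collapsin response mediator Dpysl3 (-1.34) were lower, and the median was -0.51. Map1b, a microtubule protein of growing axons, had medians of 313 RPKM at E15 and 65.0 RPKM at P2, and its difference of -2.13 spanned -3.23 to -0.58. Dclk1, a doublecortin-like kinase, was on the other side at 1.58 (0.83 to 2.40).

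Axon guidance receptors were lower at P2 for 7 of 15 measured members. Of all measured genes 5.89% were lower; no receptor was higher, and the list median was -1.36 (-1.39 to -1.03). Beside Epha3 and Nrp1 these were the ephrin receptors Epha5 (-2.54, detected in 39 of 41 and 6 of 21 cells) and Epha4 (-1.96, 29 and 7 cells) and the semaphorin receptors Plxnb2 (-1.64), Plxna4 (-1.60) and Plxna3 (-1.36). In the cells matched on detected genes the list median was -1.65. The ligands did not lean 1 way: of 8 measured, Sema3c and the ephrin Efna5 (1.44) were higher and Sema6d and the ephrin Efnb2 (-2.14) were lower, with a median of 0.38 (-0.42 to 0.50). The mean of Sema3c was higher and that of its co-receptor Nrp1 lower at P2, as levels over all cells of an age. The 9 P2 cells with Nrp1 of at least 1 RPKM also had Sema3c, at log2 levels of 4.72 to 8.56. Sema3c was in nearly all P2 cells, namely in all 6 with Gad2 and in 14 of the 15 without it. The count in cells with Nrp1 therefore shows no tie between the 2 genes. Since Epha3, Nrp1 and Sema6d are also leading genes, these counts are no separate support.

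Of 20 measured adhesion molecules 5 were lower and none was higher, beside 5.89% and 1.55% of all measured genes, with a median of -0.96 (-1.19 to -0.94): Flrt1, its relative Flrt3 (-2.07, detected in 20 of 41 and 1 of 21 cells), Cntn2 (-2.42, 28 and 1 cells), Chl1 (-1.80, 37 and 15 cells) and L1cam (-1.62, 21 and 0 cells). Cntn2, also called Tag1, and L1cam are adhesion molecules of growing axons. Of 19 measured genes of radial migration 5 were lower and none was higher, beside the same shares (median -0.65): Tiam2, Cdkn1c and Dusp14, given above, with the Rac activator Prex1 (-1.79) and Rac1 itself (-1.24, 12 of 41 and 0 of 21 cells). On cells matched on detected genes the difference was -0.96 for Prex1 and -0.24 for Flrt3, so these were not past 1 there.

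Synaptic genes were sparsely detected at both ages. Of 41 genes of glutamate receptors and the postsynaptic density only 7 were measured. The NMDA receptor subunit Grin2b did not exceed 0.00588 RPKM in any of the 41 E15 cells, and was detected in 8 of 21 P2 cells, up to 24.5 RPKM (difference 1.44, 1.40 to 1.48). The scaffold Shank1 was detected in 6 of 41 and 13 of 21 cells (1.29, 1.09 to 1.48), and at 0.72 when Neurod6 of at least 50 RPKM was asked. The kainate receptor subunit Grik2 (-1.32) and the scaffold protein Dlgap4 (-1.72) were lower. Of 32 presynaptic genes 11 were measured and none was counted in either direction (median -0.74, and -0.23 in matched cells). Of 39 voltage-gated channel genes 5 were measured and none was counted (median -0.88), and of 16 genes of GABA receptors and chloride transporters only Gabra2 (0.62) and Gabbr1 (-0.46) were measured.

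Few genes of activity and growth factor response were measured. Of 25 immediate early genes 4 were measured, Egr1 and Ier2 (1.59, detected in 8 of 41 and 10 of 21 cells) were higher, and Btg2 (-0.79) and Dusp1 (-0.38) were not. Of 21 genes of ERK pathway feedback 5 were measured, with Spry2 higher and Dusp14 lower, as given above.

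Genes known to shift with developmental time in cortical progenitors were measured in part. Of 14 late genes 8 were measured, and Zbtb20 and Ptn, a secreted growth factor (1.71, 1.27 to 2.06), were higher, whereas Nfib (-0.85) and Tcf4 (-1.03) were not; the median was 0.15 (-0.48 to 0.46). Ptn was at 1.37 in matched cells and was not counted there. Of 10 early genes 3 were measured and none was counted; Igf2bp1 was detected in 14 of 41 E15 cells and was at 0 in every P2 cell (-0.90), Igf2bp3 was at -0.61 and Mycn at -0.76. The list of cell cycle inhibitors and D cyclins also holds the kinases Cdk4 and Cdk6. In it Cdk6 and the antiproliferative Btg1 (1.69) were higher and Cdkn1c was lower. The list median was -1.02, and 0.27 in matched cells, so no direction is read from it. Of 12 measured genes of the canonical Wnt pathway Ctnnb1, which encodes beta-catenin (-2.25), Apc2 (-1.45) and the receptor Fzd1 (-1.63, 14 of 41 cells and 0 in every P2 cell) were lower (median -0.76), and Apc2 (-0.58) and Fzd1 (-0.47) were not past 1 in matched cells. Of 6 measured Notch pathway genes none was counted (median -0.47).

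Metabolic genes were divided. All but 2 of the 8 measured mitochondrially encoded genes were lower in every plate pair, beside 41.2% of all measured genes. By at least 1 in every pair 5 were lower, beside 5.89% of all measured genes: mt-Nd5 (-2.55), mt-Nd6 (-2.27), mt-Nd3 (-1.96), mt-Nd4 (-1.61) and mt-Cytb (-1.34). The list median was -1.48 (-1.65 to -1.11). Here 1 P2 cell was at 0 for mt-Cytb, while the median values were 2789 RPKM at E15 and 1618 RPKM at P2. The difference of mt-Cytb was -0.97 without the 9 E15 cells over 20% mitochondrially encoded RPKM. Of 54 measured nuclear genes of oxidative phosphorylation 6 were lower (Ndufa1, Ndufa8, Ndufa9, Ndufb9, Ndufv1 and Cox5a), none was higher, beside 5.89% lower and 1.55% higher among all measured genes, and the median of -0.25 (-0.45 to 0.15) lay above that of all genes. In matched cells that median was 0.25, and Ndufv1 (-0.016), Ndufa9 (-0.083), Ndufa8 (-0.67) and Ndufb9 (0.36) were short of -1, while Ndufa1 was at -1.64 and Cox5a at -2.53. The glycolytic enzyme Pkm had medians of 108.1 RPKM at E15 and 0.708 RPKM at P2 (-3.57, -5.07 to -1.85), and the rest of the 10 measured glycolysis genes were not counted. Of 12 antioxidant genes Sod1 and the peroxiredoxin Prdx1 (1.62) were higher and the thioredoxin reductase Txnrd1 (-1.25) was lower, with a median of 0.14 and of 0.63 in matched cells. Of 29 measured genes of the secretory pathway Pam, an enzyme that amidates peptides (2.08, 1.25 to 2.70), was higher and Calr, Pdia6 (-2.02) and Pdia4 (-1.80, and -0.95 in matched cells) were lower (median -0.51, and -0.18 in matched cells). Of 45 ribosomal protein genes Rps4x (-1.99) alone was counted, and the median was -0.21 (-0.58 to 0.14) and 0.37 in matched cells.

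**Figure D4:**
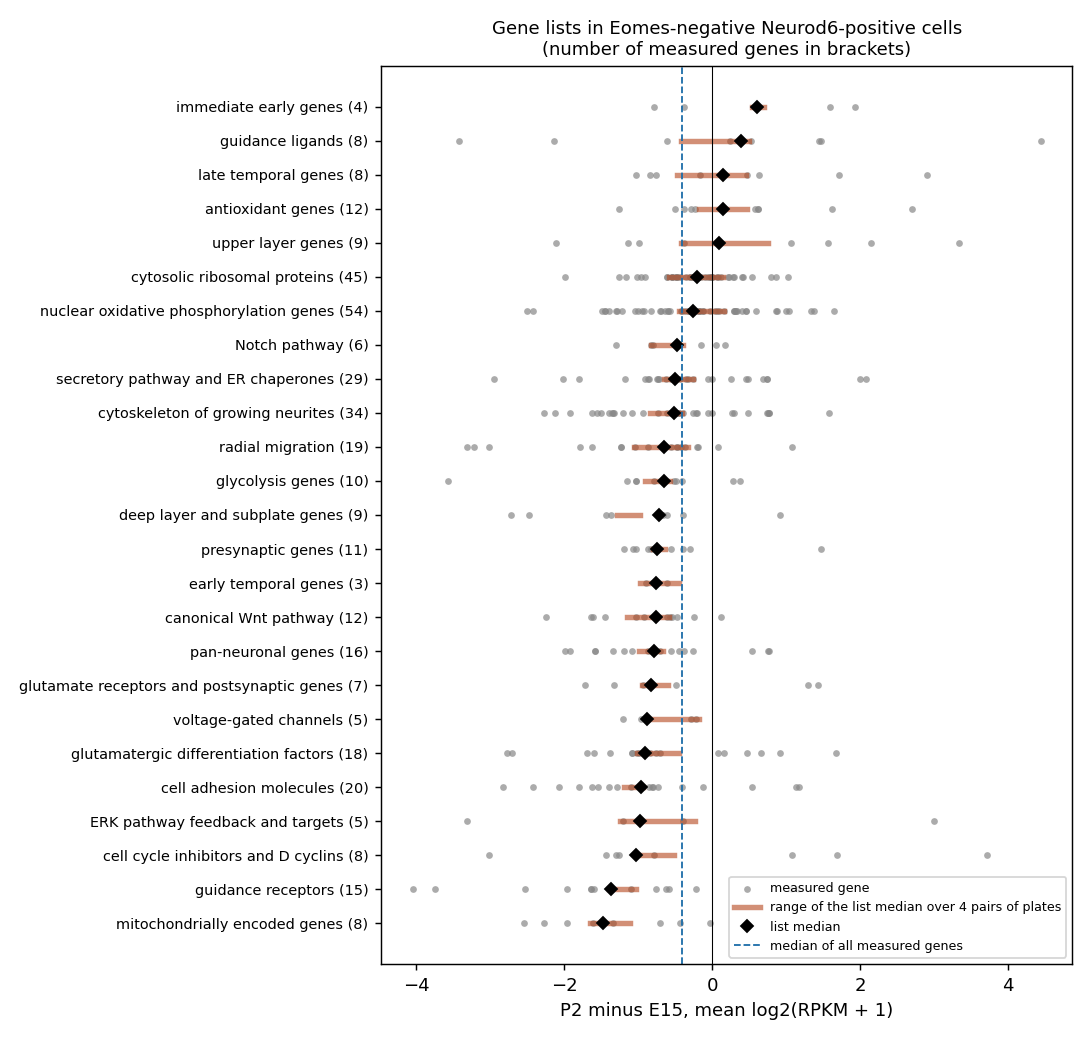
P2 minus E15 difference in mean log2(RPKM + 1) for each measured gene of the pathway lists with at least 3 measured genes (grey), the list median (black) and the range of that median over 4 plate pairs (orange), beside the median of all measured genes at -0.41 (dashed). Guidance receptors at -1.36 and mitochondrially encoded genes at -1.48 lie lowest, and single genes such as Sema3c lie far from their list.

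The P2 cells were not uniform. Gad2, which encodes a GABA-synthesising enzyme, was found in 6 cells at P2 (28.6%, interval 11.3% to 52.2%) and in none of 41 at E15, at 1.99 to 42.7 RPKM. Of these 6 cells 5 were on P2 plate 1, which has 10 selected cells, and 1 was on plate 2. The other genes of the GABAergic list were nearly absent: Gad1, Dlx1, Dlx2, Dlx5, Dlx6, Lhx6 and Slc32a1 were in no selected cell of either age, and Sp8 and Sp9 were each in 1 of the 6. All 6 had Tubb3, Dcx, Pou3f2, Cux2, Sema3c and Zbtb20, 5 had Slc17a6, 4 had Neurod1 and 3 had Tbr1. Neurod6 in them lay between 16.0 and 948 RPKM with a median of 93.4, against a median of 232 RPKM in the 15 P2 cells without Gad2. Meis2, a homeobox factor also found in olfactory bulb neuroblasts, was in all 21 P2 cells, and Pbx3 was in 4 of the 6 and in 4 of the 15. Of the 15 cells without Gad2, all had Pou3f2 and Cux2 and 14 had Sema3c, so both kinds of P2 cell carried these genes.

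A few cells held transcripts of dividing cells. At least 3 of 24 S and G2/M genes were detected in 6 of 41 E15 cells, with at most 5 genes, and in 3 of 21 P2 cells, with 3, 14 and 18 genes. The 3 P2 cells had Top2a at 4.00 to 127 RPKM, Mki67 in 2 of them, Pax6 in 2 and Neurod6 between 9.43 and 126 RPKM, together with Tubb3 and Dcx. They had Pou3f2, Cux2, Sema3c and Zbtb20, and no Bcl11b. None of the 6 E15 cells had Mki67, and their Neurod6 lay between 521 and 948 RPKM. Mki67 was, however, detected in other selected cells, at log2(RPKM + 1) of up to 7.21 at E15 and of 2.56 at P2. Whether the 3 P2 libraries hold 1 cell or more than 1 was not tested. The labels state a visual check of each capture.

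The same contrast was made in the 155 cells with Eomes of at least 1 RPKM (77 at E15 and 78 at P2), as a comparison. These cells are other libraries of the same plates. Of them, 76 at E15 and 61 at P2 also had Neurod6 of at least 5 RPKM. The comparison group was thus mostly Neurod6-positive, and its make-up differed between the ages. Over the same 3737 genes the median difference in the cells with Eomes was -0.39. Of the 15 leading higher genes 13 had the same sign there and 9 were past 1 in every plate pair. Of the 15 lower ones all had the same sign and 11 were past 1 in every pair. The same shares over all measured genes were not computed. With a median of -0.39 a negative sign was the more common one, so the counts for lower genes are a description only. Sema3c was at 3.34, Cdk6 at 3.06, Pou3f2 at 2.76, Bcl11b at -2.34, Epha3 at -3.28 and Nrp1 at -3.94, so these genes differed in the same direction in both groups of cells. Spry2 (4.12 against 3.00) and Map1b (-4.06 against -2.13) stood further apart in the cells with Eomes.

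A smaller number of genes differed between the groups in their age difference. The difference in the selected cells exceeded that in cells with Eomes by at least 1 in every plate pair for 40 genes (1.07% of those measured) and fell short of it by at least 1 for 28 (0.749%). Among leading genes and list members these included Hdac9 (2.10 in the selected cells and -0.37 in cells with Eomes), Mir5128 (2.75 and -0.30), Impact (2.80 and 0.77), Cstf2t (1.80 and 0.20) and Ier2 (1.59 and -0.10). In the other direction they included Ndufa1 (-2.43 and 0.06), Chl1 (-1.80 and 0.62), Ndufv1 (-2.51 and -0.50, with -0.016 for matched selected cells), Itm2b (-2.89 and -0.91), Snw1 (-2.53 and -0.67), Tsc22d1 (-2.95 and -1.38) and Calr (-2.95 and -1.48). Ccnd2, a D cyclin of intermediate progenitors, was named after its values were seen: its difference was -1.26 in the selected cells, from -1.69 to -0.84 over plate pairs, and lower than that in cells with Eomes by 2.31. The list medians were -0.04 in cells with Eomes and -1.02 in the selected cells for cell cycle inhibitors and D cyclins, and -0.98 and -1.36 for guidance receptors. With 1 sample per age, none of these differences between groups has a test.

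**Figure D5:**
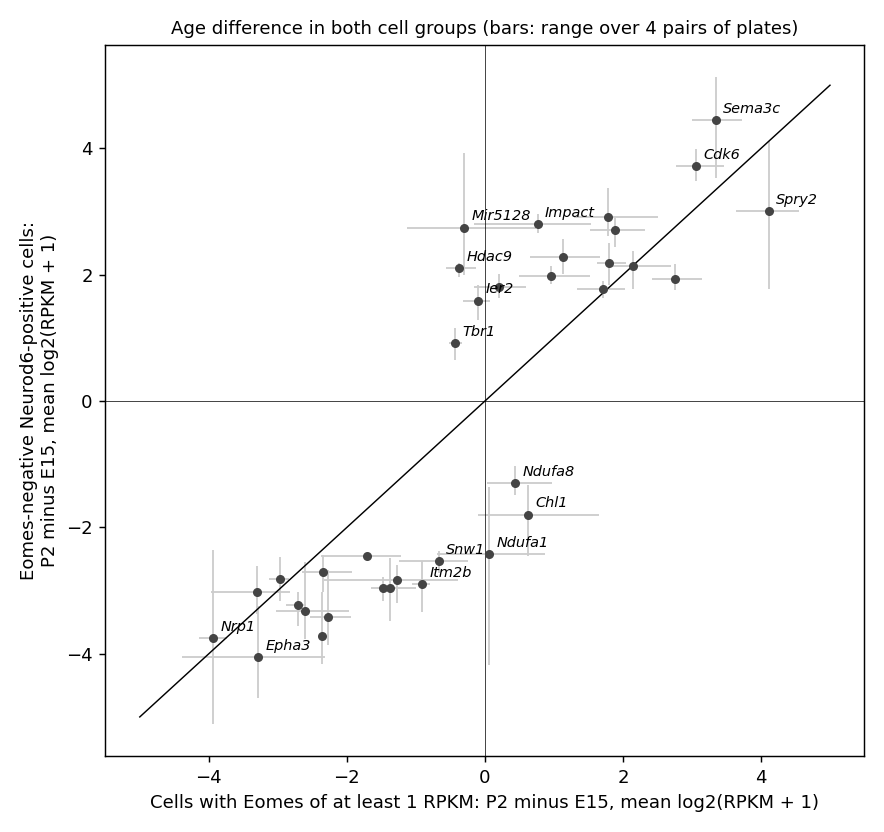
P2 minus E15 difference in mean log2(RPKM + 1) in cells with Eomes (horizontal) and in Eomes-negative Neurod6-positive cells (vertical) for the 30 leading genes and for Chl1, Tbr1, Ier2, Ndufa1 and Ndufa8, with bars for the range over 4 plate pairs and the line of equal differences. All 15 leading lower genes lie below 0 in both groups, whereas Hdac9 (2.10 against -0.37) and Chl1 (-1.80 against 0.62) lie on opposite sides of 0.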

How the data were processed

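Single cells were captured on a microfluidic chip, amplified and sequenced, per the labels' protocols. The submitters' processing notes name bcl2fastq 2.15.0.4, cutadapt 1.9.1, STAR, featureCounts and the build GRCm38.p4. The authors deposited RPKM values per gene and cell, and the read total and annotation behind them are not given in the sources used here. 1 P2 column held only zeros and was left out.

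The members and gene lists were chosen with earlier results of these data known. Levels are means of log2(RPKM + 1) over cells, computed with Python 3.11.15, numpy 2.4.6, pandas 2.3.3 and scipy 1.17.1, and drawn with matplotlib 3.10.9. Genes were measured when at or above 1 RPKM in 25% of the selected cells of either age, and counted when past 1 overall and in each of 4 plate pairs. Named genes were the 15 per direction with the largest smallest-pair difference (without predicted models, Xist, Tsix and Y-linked genes, Eomes and Neurod6), and up to 4 measured members per list with the largest difference. Other genes, taken from the 26 pathway lists and 13 cell type lists, were named after their values were seen. Assigned reads were estimated from the steps of the RPKM values with GENCODE exon lengths for 45646 genes, where values within 0.02 of a whole number counted as whole. The scripts were tested on simulated data. Alternatives covered the pseudocount, scale, filter, selection limits, left-out plates and cells, and cells matched on detected genes.

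Some genes of the lists are not reported here.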

Additional observations from a re-analysis of the deposited data

Results flagged for a closer look

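Of the 68 genes whose age difference was at least 1 apart between the Eomes-negative Neurod6-positive cells and cells with Eomes in every plate pair, 26 had opposite signs in every pair. The 68 were chosen for lying apart between the groups, which favours opposite signs. The share with opposite signs over all measured genes was not computed, so the count is a description only. Among the genes named in the text, opposite signs in every pair were found for Hdac9, Ndufa8, Tbr1 (which was not among the 68) and Ccnd2. The difference between the cell groups was not tested. Hdac9 differed between the ages by 2.10 (plate pairs 1.97 to 2.19) in the selected cells and by -0.37 (-0.56 to -0.13) in cells with Eomes. Ndufa8, a subunit of respiratory complex I, differed by -1.30 (-1.48 to -1.03) and by 0.44 (0.03 to 0.97). Tbr1 differed by 0.92 (0.64 to 1.16) and by -0.43 (-0.52 to -0.33). Ccnd2 differed by -1.26 (-1.69 to -0.84) and by 1.05 (0.11 to 2.13). In 11 selected cells per age matched on detected genes Hdac9 was at 2.50, Ndufa8 at -0.67 and Tbr1 at 1.64.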

How the results depend on the processing

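Of the measured genes 1.55% were higher and 5.89% lower, with a median difference of -0.41. Since the number of measured genes differed between alternatives, shares of them are compared. The shares were 2.81% and 16.3% (median -0.73) with a pseudocount of 0.1, 2.78% and 10.5% (-0.30) with the logarithm of the mean, and 2.57% and 11.4% (-0.55) on a TPM scale. They were 0.438% and 1.66% (-0.034) without a filter on low values, and 2.51% and 10.4% with detection in 50% of cells. In 11 cells per age matched on detected genes, which leave 1 plate pair, they were 10.5% and 14.6% (-0.11). Without cells with few detected genes 0.935% were higher (40 genes, against 323 lower; median -0.54), and without cells over 20% mitochondrially encoded RPKM the shares were 0.859% and 9.56% (-0.59). Leaving out a plate, which leaves 2 pairs, gave 2.04% and 14.1% (-0.51) without E15 set A, 3.16% and 11.9% without set B, 5.65% and 10.6% (-0.22) without P2 plate 1, and 4.54% and 15.3% without plate 2. Scaling by median ratios, which rested on 149 genes, gave 64 genes higher and 153 lower (-0.31).

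In the matched cells the median of cell cycle inhibitors and D cyclins was 0.27 in place of -1.02, that of glycolysis genes 0.13 in place of -0.65, and Ndufb9 was at 0.36 in place of -1.28; the cause was not tested. No leading gene changed direction under any of the 19 alternatives. These genes were chosen for their smallest difference over plate pairs, so leaving out a plate could not reverse them. The other alternatives reuse the same cells, so the constant direction is no separate support. No paired analysis was possible because no replicate number in the labels pairs cells between the ages. With 1 sample per age, differences between animals, litters, dissected regions and ages cannot be told apart.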
